A study of Caenorhabditis elegans with 10 samples.

Results

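The 10 genes described here encode enzymes that remove superoxide and peroxides in Caenorhabditis elegans: the superoxide dismutases sod-1 to sod-5, the catalase ctl-2, and the glutathione peroxidases gpx-1, gpx-2, gpx-3 and gpx-5. They were chosen by name, each on the probe set annotated to it alone with the highest mean signal over 10 arrays, from 17118 genes with such a probe set. Each of the 10 had 1 such probe set, and all 10 were bright enough to be tested, as were 12061 genes in all.

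Superoxide dismutases turn superoxide into hydrogen peroxide. Catalase splits hydrogen peroxide into water and oxygen, and glutathione peroxidases reduce hydrogen peroxide and lipid hydroperoxides with electrons from glutathione or thioredoxin. In the worm, part of this defence is driven by SKN-1, the relative of mammalian Nrf factors, whose protein is marked for breakdown through WDR-23 and a cullin ubiquitin ligase. Other members, sod-3 above all, are known as targets of the FOXO factor DAF-16.

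RNA came from whole animals, grown from synchronised first-stage larvae until most had reached the L4 stage and fed HT115 bacteria that make double-stranded RNA. Each sample held 200 to 500 worms, so the signals are averages over all tissues, and fewer cells of a type cannot be told apart from less RNA per cell. Carbenicillin (50 ug/ml) and lactose (0.2%) were in the agar of all groups. The groups were N2, the wild type, with control RNAi (n = 3), wdr-23 mutants with control RNAi (n = 4) and wdr-23 mutants with skn-1 RNAi (n = 3). The mutant allele is written tm1718 in the sample labels and tm1817 in the series design. N2 with skn-1 RNAi was not among the groups, so an effect of skn-1 RNAi on these genes in wild-type animals was not measured.

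Values are linear MAS5 signals from Affymetrix arrays, and the number of arrays limits their precision. A change was fitted with limma on log2(signal + 19) over 15783 probe sets, which understates the change of dim genes, and was called at a Benjamini-Hochberg adjusted p under 0.05. The skn-1 transcript was at 289.2, 237 and 245.4 with skn-1 RNAi and at 380.5 to 547.2 in the mutant with control RNAi (log2 change -0.83, SE 0.145, limma adjusted p = 0.000708). The probe set of wdr-23 read 3259 ± 452.5 (SD, n = 4) in the mutant and 865.4 ± 151.5 (SD, n = 3) in N2, so it was higher in the mutant, and 901.7 ± 18.56 (SD, n = 3) with skn-1 RNAi. Where that probe set lies relative to the mutation is not given, so it checks no genotype label. All 10 arrays had nearly the same trimmed mean signal, 500.11 to 500.14, and 0 pairs of arrays held identical values. All 34 marker genes on the array for intestine, muscle, neurons, epidermis, coelomocytes, sperm, oocytes and yolk, and adult cuticle passed the brightness filter. The summed signal of the adult cuticle genes col-19 and rol-1 was 7205 to 9820 over the 10 arrays, and neither gene was called in any comparison, although 1 was lower in the mutant than in N2 with median centring.

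The first comparison asked what differs in wdr-23 mutants when mutant and N2 both had control RNAi. In the mutant 2 glutathione peroxidase genes were 2.82-fold and 3.29-fold higher, the gene of the major cytosolic dismutase was slightly higher, and 1 peroxidase and 1 mitochondrial dismutase gene were lower. Of the 10 genes, gpx-1, gpx-2 and sod-1 rose and gpx-3 and sod-3 fell, while sod-2, sod-4, sod-5, ctl-2 and gpx-5 were not called. Among all probe sets tested, 27.5% were called in this comparison, 17.4% higher and 10.1% lower (2754 and 1590 probe sets, against 1942 and 1962 after quantile normalization and 1671 and 4613 with median centring of the arrays). The median log2 change of the 10 genes was 0.13, beside 0.01 for all probe sets tested, and the median size of the change was 0.41, beside 0.26. The arrays of the groups did not overlap for 5 of the 10 genes and for 33.9% of all probe sets.

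**Figure D1:**
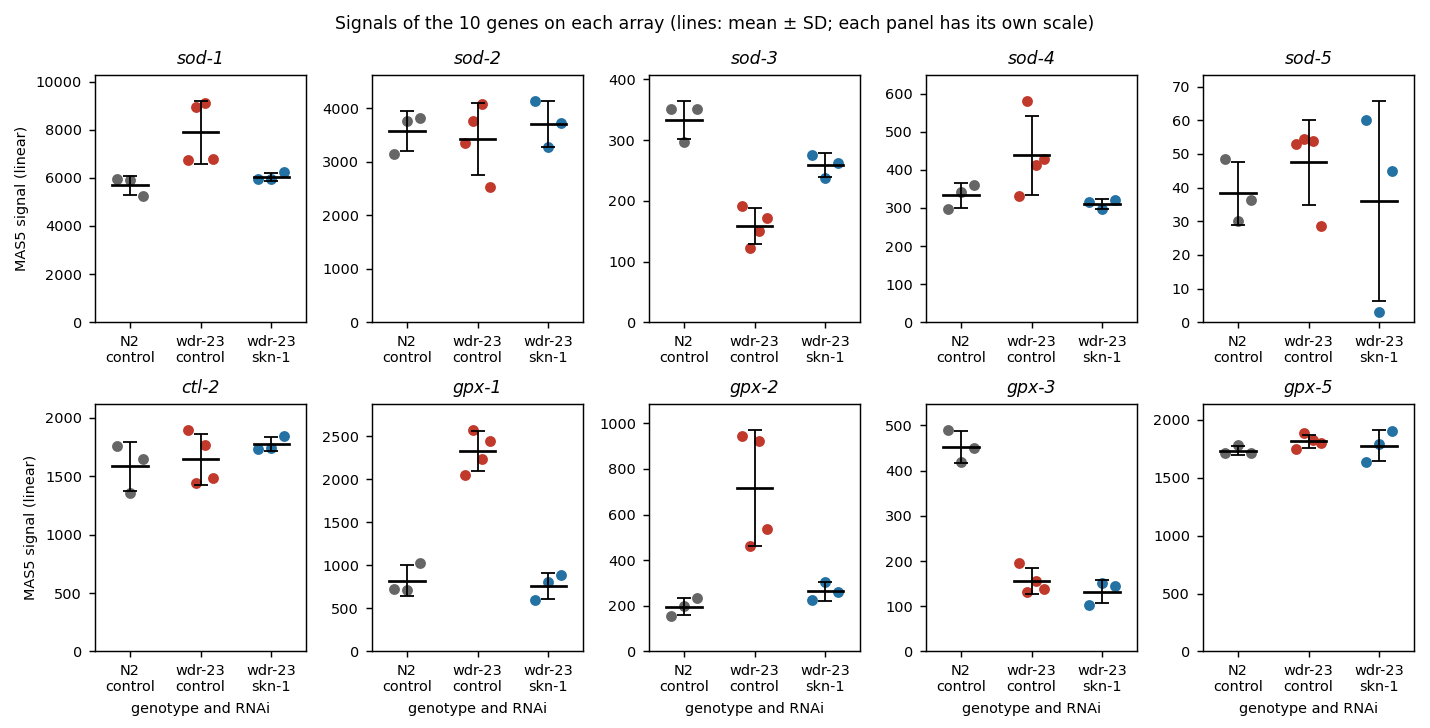
MAS5 signal (linear axis from 0, each panel on its own scale) of the 10 genes on every array in the 3 groups. Points are arrays, and black lines are the mean ± SD of 3, 4 and 3 arrays. In gpx-1 and gpx-2 the 4 mutant control arrays lie above the other 6, in sod-3 they lie under them, and in gpx-3 both mutant groups lie under N2.

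The gene gpx-1 belongs to the phospholipid hydroperoxide type of glutathione peroxidase. In N2 its signals were 720.6, 712.4 and 1026. The 4 mutant arrays with control RNAi read 2047, 2569, 2235 and 2446, and those with skn-1 RNAi read 597.1, 807.8 and 885.4. All mutant control arrays were thus above all others, and the N2 and skn-1 RNAi arrays were intermixed. Against N2 the mutant was 2.82-fold higher (95% interval 2.25 to 3.54), a log2 change of 1.498 (SE 0.154, limma adjusted p = 1.6e-06).

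A second peroxidase of the same type, gpx-2, was at 157.5, 197.4 and 235.2 in N2. The mutant control arrays gave 944.9, 462.2, 922 and 536, and those with skn-1 RNAi gave 224.9, 304.4 and 259.3. The mutant control arrays again lay above the other 6, with replicates 1 and 3 well above replicates 2 and 4. The rise over N2 was 3.29-fold (95% interval 2.38 to 4.54), a log2 change of 1.72 (SE 0.22, limma adjusted p = 2.25e-05).

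The opposite direction was seen in gpx-3, a peroxidase of the secreted type. It read 489.1, 418.3 and 449.8 in N2 and 195.6, 131.2, 156.4 and 138.6 in the mutant on control RNAi. With skn-1 RNAi its signals were 103, 150.4 and 144.2. The 2 mutant groups overlapped each other, and neither overlapped N2. The fall from N2 to the mutant was 2.72-fold, a log2 change of -1.45 (SE 0.158, limma adjusted p = 3.61e-06).

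Next to gpx-3 in the WBcel235 gene table, with 0 protein-coding genes between them, lies gpx-5, which is of the same secreted type. Its N2 signals ran from 1712 to 1780, the mutant from 1750 to 1888 and skn-1 RNAi from 1639 to 1904, so all 3 groups overlapped. The mutant was at 1.05 times N2, with a 95% interval of 0.905 to 1.21 (log2 change 0.06, limma adjusted p = 0.654). The neighbours therefore gave log2 changes of -1.45 and 0.06 whose 95% intervals, -1.78 to -1.11 and -0.14 to 0.27, did not meet.

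Among the dismutase genes, sod-1 encodes the main cytosolic copper and zinc dismutase. Its probe set, like that of ctl-2, carries the suffix of sets that can match related transcripts, and what it matches was not checked. The signals of sod-1 were 5947, 5898 and 5228 in N2. Its mutant signals were 6733, 8935, 9091 and 6801, and those with skn-1 RNAi were 5940, 5955 and 6224. Every mutant control array lay above the other 6, 2 of them by a small margin. The rise was 1.37-fold, a log2 change of 0.46 (SE 0.115, limma adjusted p = 0.0078), and with median centring it was 0.26 and not called (adjusted p = 0.108).

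Of the 2 mitochondrial manganese dismutases, sod-3 fell and sod-2 was not called. For sod-3, a common reporter of DAF-16, N2 gave 350.8, 297.3 and 351.5, and the mutant gave 191, 121.9, 150 and 171.5. With skn-1 RNAi the signals were 276.3, 237.4 and 262.4, so the 3 groups formed 3 separate ranges with N2 highest. Between mutant and N2 the log2 change of sod-3 was -0.9998 (SE 0.148, limma adjusted p = 0.000108). For sod-2, the main mitochondrial form, the ranges were 3138 to 3812, 2523 to 4073 and 3277 to 4130 in N2, mutant and skn-1 RNAi. Those ranges overlapped, and the mutant stood at 0.949 times N2 with a 95% interval of 0.768 to 1.17 (limma adjusted p = 0.723).

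The extracellular copper and zinc dismutase gene sod-4 was at 296.5 to 361 in N2 and 331 to 580.6 in the mutant. Its log2 change of 0.35 (95% interval 0.02 to 0.68) missed the threshold (limma adjusted p = 0.102), and without mutant control replicate 1, the lowest of the 4, it was 0.47 and called (adjusted p = 0.0284). The gene sod-5, for the second cytosolic copper and zinc dismutase, was the dimmest of the 10, with a mean log2 value 0.13 above the brightness filter. Its 10 signals ran from 3.008 to 60.23, and its 95% interval for the mutant against N2, -0.50 to 0.91, was the widest of the 10 on the log2 scale.

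Catalase was represented by ctl-2, for the peroxisomal enzyme. It read 1352 to 1758 in N2, while the mutant arrays ran from 1440 to 1893 and the skn-1 RNAi arrays from 1735 to 1841. The groups overlapped, and the mutant was at 1.04 times N2 (95% interval 0.865 to 1.24, limma adjusted p = 0.778). In the WBcel235 gene table ctl-2 and its near copies ctl-1 and ctl-3 follow one another with 0 protein-coding genes between. Neither of those had a probe set of its own, and the probe set of ctl-2 carries the suffix of sets that can match related transcripts, so a share of its signal may come from the copies.

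Markers of tissues moved in the same comparison, in which 17.4% of all probe sets were called higher and 10.1% lower. Of 5 epidermal genes 3 rose, among them the furrow collagen gene dpy-7 (log2 change 1.70), and of 6 intestinal genes 3 rose and 1 fell. The 3 epidermal rises were called under all 19 alternative settings, with 1 fall added by median centring and without N2 replicate 3. The intestinal fall, of ges-1, was lost in 10 of the 19, among them each fit without 1 N2 array, and the rise of vha-6 in 8, these 3 fits and median centring included. Summed over the list, intestinal signal ran from 21990 to 26240 in N2 against 24820 to 29900 in the mutant, and epidermal signal from 33520 to 46600 against 34410 to 42640. Of 5 oocyte and yolk genes 3 were called lower, but 5 were with median centring and 0 without N2 replicate 1. Singly, vit-2 was lost in 12 of the 19 settings, oma-1 in 10 and puf-5 in 1. Their summed signal was 29770 to 38420 in N2 and 26770 to 29580 in the mutant. None of 4 body-wall muscle genes was called, and their summed signals overlapped at 21020 to 22890 and 21370 to 22950. Of 5 neuronal genes 1 rose (summed 4508 to 4976 against 5199 to 5851), of 5 sperm genes 2 rose (16570 to 17860 against 18760 to 20960), and neither of 2 coelomocyte genes was called (370.1 to 493 against 371.4 to 430.8). No marker on the array was under the pseudocount on any array. The part of these shifts, or of a difference in stage, in the results above was not tested.

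Knock-down of skn-1 in the mutant asked which of these differences depend on skn-1. The 2 peroxidases that had risen fell, gpx-1 by 3.02-fold and gpx-2 by 2.51-fold, sod-1 fell by 1.29-fold and sod-3 rose 1.58-fold. The other 6 genes were not called, and among all probe sets 22.5% were (1577 higher and 1981 lower, against 1721 and 1623 after quantile normalization and 3463 and 1308 with median centring), 9.99% of all probe sets being higher. The median log2 change of the 10 genes was -0.29, beside -0.01 for all probe sets tested. Both this comparison and the first use the 4 mutant control arrays, so opposite signs in them are not independent.

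**Figure D2:**
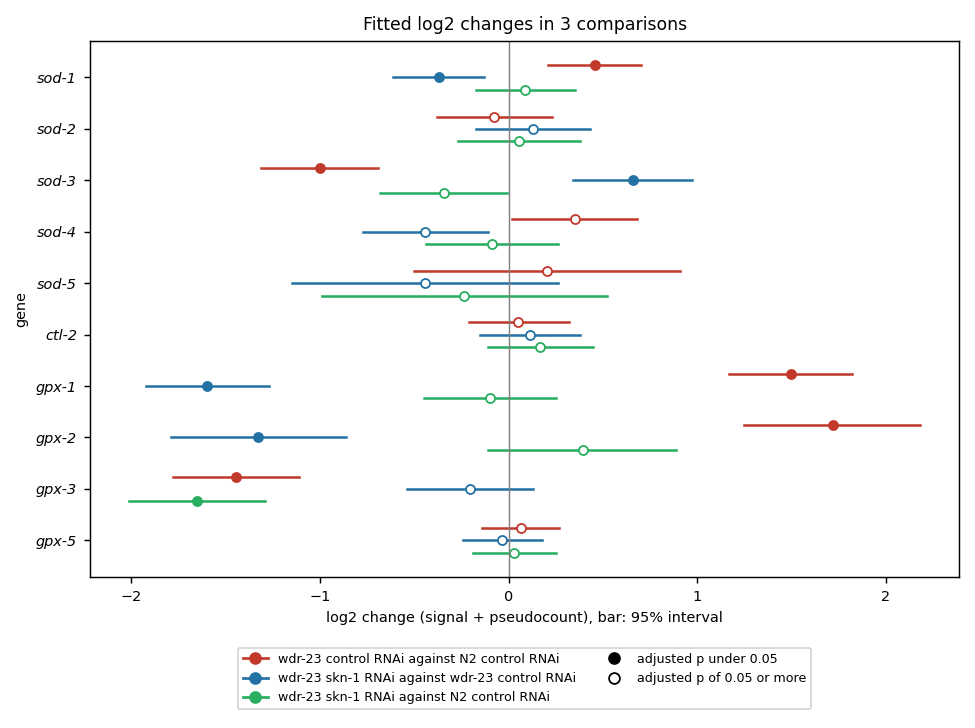
Fitted log2 changes (points) with 95% intervals (bars) of the 10 genes in the 3 comparisons, filled where the limma adjusted p was under 0.05. The comparison of skn-1 RNAi mutants with N2 has 1 filled point, gpx-3 at -1.65.

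For gpx-1 the log2 change with skn-1 RNAi was -1.60 (SE 0.154, limma adjusted p = 1.08e-06) and for gpx-2 it was -1.33 (SE 0.22, limma adjusted p = 0.000449). The 3 skn-1 RNAi arrays lay under the 4 control RNAi arrays in both genes. The rise of sod-3 had a log2 change of 0.66 (SE 0.148, limma adjusted p = 0.00483), and its groups did not overlap.

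The fall of sod-1 was the least secure of the 4 calls, with a log2 change of -0.37 (SE 0.115, limma adjusted p = 0.0304). It was not called without any 1 of the 3 skn-1 RNAi arrays or without mutant control replicate 2 or 3 (-0.39 to -0.30, adjusted p = 0.0589 to 0.0899). Nor was it called with no filter on dim probe sets (adjusted p = 0.0588), without the intensity trend (adjusted p = 0.0715) or with median centring (-0.22, adjusted p = 0.184).

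The dismutase gene sod-4 read 316.1, 296.8 and 320.8 with skn-1 RNAi, under every mutant control array, at a log2 change of -0.44 (limma adjusted p = 0.0516). Among all probe sets 32.4% had groups that did not overlap in this comparison. With the lowest 50% of probe sets left out, sod-4 was called (adjusted p = 0.0483), as it was without mutant control replicate 1 (-0.56, adjusted p = 0.0145).

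No call was made for gpx-3, whose low level in the mutant stayed low with skn-1 RNAi, at 132 ± 25.8 (SD, n = 3) against 156 ± 28.8 (SD, n = 4). Its log2 change was -0.20, with a 95% interval of -0.54 to 0.13 (limma adjusted p = 0.375), while 1.45 on that scale separated the mutant from N2. The skn-1 transcript itself was still at 0.563 times its mutant control level. The effect of a full loss of skn-1 was therefore not measured. The intervals of sod-2 (-0.17 to 0.43), ctl-2 (-0.15 to 0.38) and gpx-5 (-0.24 to 0.18) spanned 0, and that of sod-5 was -1.15 to 0.26. In sod-5 the skn-1 RNAi replicate 2 stood at 3.008 while the other two read 60.23 and 45.01, and without it the change was 0.12.

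**Figure D3:**
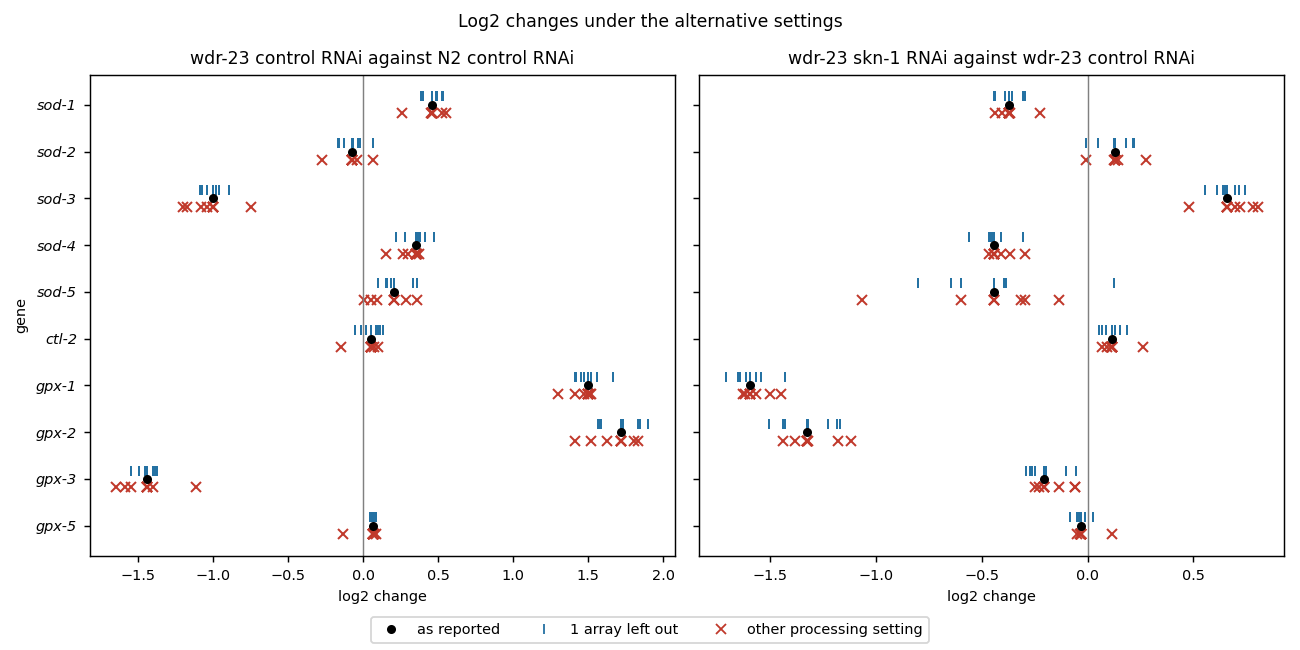
Log2 change of each gene as reported (black), with 1 array left out at a time (blue ticks) and under the other processing settings (red crosses), for mutant against N2 and for skn-1 RNAi against control RNAi. The changes of gpx-1 stay between 1.2966 and 1.67 in the first and between -1.71 and -1.43 in the second. Those of sod-2, sod-5, ctl-2 and gpx-5 cross 0 in at least 1 of the 2.

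Epidermal markers also fell with skn-1 RNAi, 3 of 5 (dpy-7 at -1.08), although 2 rose with median centring and 1 without mutant control replicate 3. Of all 15783 probe sets tested, 1577 were called higher and 1981 lower here. Of 6 intestinal markers 3 fell (2 to 4 over the 19 settings) and ges-1 rose, a rise lost without any 1 of the skn-1 RNAi arrays or mutant control replicate 2. Of 5 neuronal genes 1 fell under all 19 settings. Of 5 sperm genes gsp-3 was called lower, and this was lost in 8 of the 19, among them median centring, the replicate block and each fit without 1 skn-1 RNAi array. The summed intestinal signal was 21520 to 23860 with skn-1 RNAi, under the 24820 to 29900 of the mutant with control RNAi. Among oocyte and yolk genes 2 of 5 rose (4 with median centring or without mutant control replicate 1, and 1 without skn-1 RNAi replicate 1), and their summed signal was 30380 to 37340. Summed epidermal signal was 38290 to 48660, neuronal 4452 to 4817, sperm 18200 to 19920 and coelomocyte 381.1 to 532.5. None of the 4 muscle genes was called, at a summed 19970 to 20670. Their part in these results was not tested.

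A last comparison, of skn-1 RNAi mutants and N2, asked which genes stayed apart from the wild type. Of the 10 genes, 1 was called, and that was gpx-3, 3.14-fold lower than in N2 (95% interval of the ratio 0.249 to 0.409), a log2 change of -1.65 (SE 0.169, limma adjusted p = 7.36e-06). Of all probe sets 6.34% were called, 3.88% higher and 2.46% lower. The gene gpx-1 was at 0.934 times N2 (95% interval 0.734 to 1.19, limma adjusted p = 0.826) and sod-1 at 1.06 times (0.887 to 1.27, limma adjusted p = 0.787). For gpx-2 the ratio was 1.31 (0.929 to 1.85, limma adjusted p = 0.4), so the interval reached from slightly under N2 to 1.85 times its level. On the log2 scale the 95% intervals of sod-2 (-0.27 to 0.38), sod-4 (-0.44 to 0.26), sod-5 (-0.99 to 0.52), ctl-2 (-0.11 to 0.45) and gpx-5 (-0.19 to 0.25) all spanned 0. Among the tissue markers 1 intestinal, 1 epidermal and 1 sperm gene rose and 1 intestinal gene fell, and no other marker was called in this comparison. All 4 calls were lost when some single arrays were left out, elt-2 in 11 of the 19 settings, vha-6 in 6, and dpy-7 and spe-11 in 4 each. Without any 1 of the N2 arrays 0 intestinal genes were called. Their part in the difference of gpx-3 was not tested.

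In sod-3 all 3 skn-1 RNAi arrays lay under all 3 N2 arrays, at 0.789 times N2 (95% interval 0.626 to 0.996). The adjusted p was 0.251 by limma, and 26.2% of all probe sets had groups that did not overlap here. By level, sod-3 was thus highest in N2 and lowest in the mutant, with skn-1 RNAi between, and the mutant on control RNAi was called apart from both other groups. In gpx-1, gpx-2 and sod-1 the mutant on control RNAi was highest and the other groups were not called apart. In gpx-3 N2 was highest and both mutant groups were not called apart.

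Other genes of peroxide, thiol and superoxide handling came from a list of 28, of which 26 had a probe set and 22 were tested. Between mutant and N2, 8 rose and 1 fell, where 17.4% of all probe sets were called higher and 10.1% lower. The median log2 change was 0.19, beside 0.01 for all probe sets. The largest rises were in the genes that make and recycle the glutathione which peroxidases use. They were gcs-1, for the rate-limiting step of glutathione synthesis (log2 change 2.51), gss-1, glutathione synthetase (1.38), and gsr-1, glutathione reductase (1.01). The fall was in cuc-1, for a copper chaperone, from a mean signal of 1822 to 1129 (log2 change -0.68, limma adjusted p = 0.000118). Quantile normalization left 7 rises and 1 fall, and median centring 7 rises and 2 falls with a median of -0.01.

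In the mutant given skn-1 RNAi, 6 of the 22 fell and 2 rose. Of all 15783 probe sets tested, 1981 were called lower and 1577 higher in this comparison. The same glutathione genes fell most, gcs-1 by 1.60 on the log2 scale, gss-1 by 1.08 and gsr-1 by 0.90. The rises were in cuc-1 (0.86) and sesn-1 (0.57), the gene for sestrin. The call of sesn-1 was lost without skn-1 RNAi replicate 1 or 2, without mutant control replicate 2 or 4, or with no filter on dim probe sets (0.42 to 0.71 over all settings). Quantile normalization gave 6 falls and 4 rises, and median centring 6 falls and 5 rises. Compared with N2 there was 1 call after skn-1 RNAi, gcs-1 (0.91), where 6.34% of all probe sets were called. Among these and the 10, gcs-1 and gpx-3 were thus the genes called apart from N2. Without a call, the groups also did not overlap in gss-1, mlt-7, cuc-1 and gpx-6, as in 26.2% of all probe sets.

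**Figure D4:**
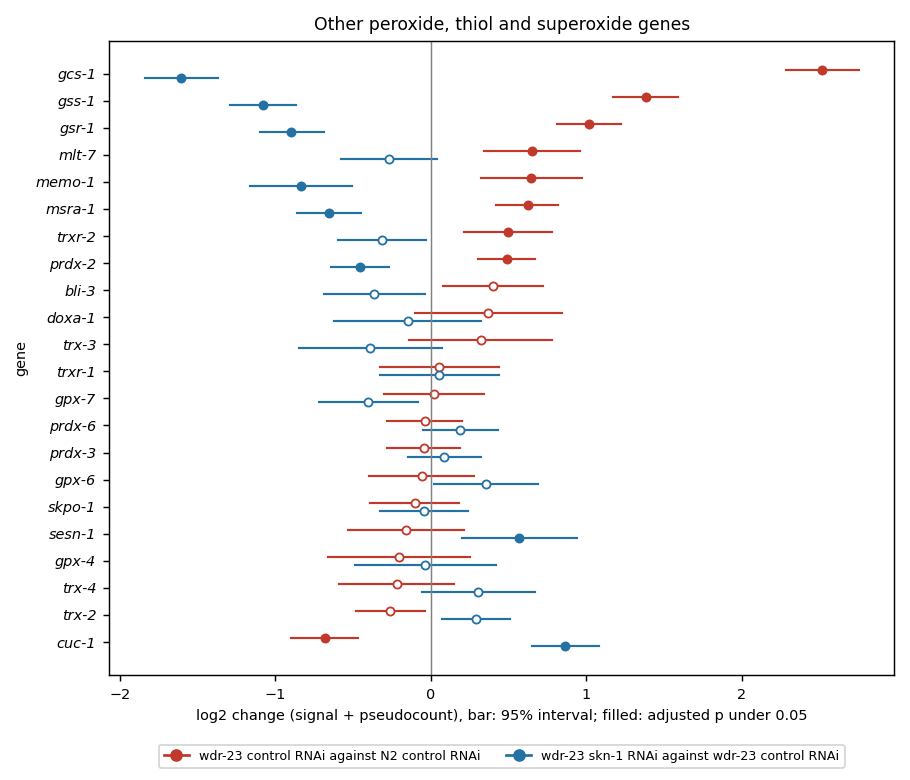
Log2 changes with 95% intervals of the 22 tested genes of the wider list, ordered by the change between mutant and N2 (red), with skn-1 RNAi against control RNAi in the mutant in blue. Filled points have a limma adjusted p under 0.05, and gcs-1 (2.51 and -1.60) and cuc-1 (-0.68 and 0.86) mark the ends.

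Further members of the peroxidase families were named after their values were seen. The cytosolic peroxiredoxin gene prdx-2 went from a mean signal of 9038 in N2 to 12680 in the mutant (log2 change 0.49, limma adjusted p = 0.000637) and to 9210 with skn-1 RNAi (-0.46, limma adjusted p = 0.0014). The mitochondrial prdx-3 was at -0.05 and 0.09 in those comparisons and prdx-6 at -0.04 and 0.19, with 0 calls. Of the other glutathione peroxidase genes, gpx-4 (-0.21), gpx-6 (-0.06) and gpx-7 (0.02) were not called between mutant and N2, and gpx-8, a pseudogene in the gene table, was too dim to test.

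Lists of readout genes of both transcription factors were read in the same fit. They were chosen with earlier results of these data known, so their counts are no independent check. Of all probe sets 17.4% were called higher in the first comparison, 22.5% either way in the second and 3.88% higher in the last. All 7 SKN-1 readout genes rose in the mutant, with a median log2 change of 2.99, all 7 fell with skn-1 RNAi (median -1.04), and all 7 stayed above N2 (median 1.58). The common SKN-1 reporter gst-4 went from a mean signal of 1232 in N2 to 11560 in the mutant and to 6212 with skn-1 RNAi. Its log2 change against N2 was thus still 2.32 with skn-1 RNAi, beside -0.10 for gpx-1 and 0.39 for gpx-2 in the same fit.

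The DAF-16 list also held daf-16 itself and daf-2, which are not readouts, and neither was called in any comparison. Of its 14 tested genes, 2 rose and 3 fell in the mutant, where 17.4% of all probe sets were called higher and 10.1% lower. The rises were asah-1, an acid ceramidase gene (2.74), and dod-3 (0.69), and the falls were the desaturase genes fat-5 (-1.38) and fat-7 (-1.07) and icl-1 (-0.45), which encodes the glyoxylate enzyme. Under median centring these were 2 rises and 7 falls. With skn-1 RNAi 1 rose, the lysozyme gene lys-7 (0.56), and 6 fell, led by asah-1 (-2.61), the ferritin gene ftn-1 (-1.65) and dod-3 (-1.21). The fall of mtl-2 was lost in 13 of the 19 settings. In this comparison 1577 of all 15783 probe sets were called higher and 1981 lower. Relative to N2 there were 0 rises and 6 falls after skn-1 RNAi, beside 2.46% of all probe sets called lower. The falls were led by fat-5 (-1.9991), ftn-1 (-1.41) and fat-7 (-1.11). The falls of mtl-2 and dod-3 among these 6 were each lost in 9 of the 19 settings, and 4 falls were left without any 1 of the skn-1 RNAi arrays, without N2 replicate 2 or 3, without the intensity trend or with no dim filter. The genes fat-5 and icl-1 were called lower in both the first and the second comparison, and fat-7 in the first alone. The gene sod-3 was called lower in the first and higher in the second, where lys-7 was also higher. In asah-1 and dod-3 the calls were higher in the first and lower in the second. A part of DAF-16 in the changes of sod-3 was not tested.

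The genes most like each of the changed members over the 10 arrays were found by Pearson correlation of log2 values among 12060 other genes and are given as a description. The arrays fall into 3 groups, so each correlation is followed by its value after group means were removed. The genes were picked on these same arrays, by a correlation that includes the part within groups. The values within groups are therefore raised by that choice and are no independent check. For gpx-1 they were cat-4 (r = 0.992, within groups 0.94), F53A9.6 (0.989, within groups 0.83) and clc-19 (0.985, within groups 0.85). For gpx-2 they were ttm-5 (0.987, within groups 0.97), K01A2.5 (0.986, within groups 0.9) and lev-10 (0.969, within groups 0.83). Nearest to gpx-3 were lact-1 (0.988, within groups 0.87), cee-1 (0.977, within groups 0.54) and cTel55X.1 (0.966, within groups 0.23), the last of which had the lowest value within groups of those named. Nearest to sod-3 were Y43C5A.2 (0.986, within groups 0.88), spig-20 (0.974, within groups 0.8) and ZK643.5 (0.968, within groups 0.77). For sod-1 they were clp-4 (0.98, within groups 0.95), nlp-16 (0.975, within groups 0.94) and plc-1 (0.95, within groups 0.84). None of the 10 was among the 3 nearest genes of another, and gpx-1 and gpx-2 correlated at 0.86 over the arrays and at 0 once group means were removed.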

How the data were processed

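The values used are intensity values on a linear scale, which the submitters' processing notes name as MAS5 without a version, deposited as 1 table. Per the labels, each array took cRNA from 250 ng of total RNA. The mean of each array after trimming 2% at each end was 500.11 to 500.14, so a common scaling is in the values. Controls, 77 of 22625 probe sets, were left out. Platform annotation gave 1 gene to 20766, several to 887 and none to 895, and all 10 member symbols matched RefSeq by gene number.

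Signals were taken to log2 after adding 19, the 20th percentile rounded. The lowest 30% by mean log2 value (5.71 or less) were left out. One limma 3.58.1 fit in R 4.3.3 (lmFit, eBayes with intensity trend, two-sided) held all 3 groups. A run of the fit on simulated normal values had changes planted in the mutant control group alone and read the first comparison only. It held no shifts of whole arrays, and its counts are not reported here. Genes named were the 10 members, wdr-23, skn-1, and per list up to 3 called rises and 3 falls, with exceptions stated. Members and lists were chosen with earlier results of these data known. Nothing says whether replicates came from separate cultures beyond their label as biological. Alternatives were pseudocount, filter, scaling, trend, replicate block, fits of 2 groups and leaving out each array. Each member has 1 single-gene probe set, so averaging probe sets was not run. The planned promoter and protein sequences were not used here. Figures used matplotlib 3.10.9.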

Additional observations from a re-analysis of the deposited data

Results flagged for a closer look

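In the group of 4 mutant arrays with control RNAi, replicate 4 read 28.48 for sod-5, far from the other 3, which were at 53.11 to 54.49. Its gap to the nearest of them was 0.947 of the range of the 4, which is past Dixon's 95% limit for 4 values, and chance passes that limit in about 1 group in 20. The other 9 genes had no array that far out in this group. The signal of sod-5 is close to the pseudocount of 19, and sod-5 was called in 0 of the 3 comparisons.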

How the results depend on the processing

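Over 19 alternatives the changes of the 10 genes were computed again 567 times, and 536 kept direction and side of the threshold, 9 lost a call (all of sod-1), 3 gained one (all of sod-4) and 19 turned direction, none of them called. The calls of gpx-1, gpx-2, gpx-3 and sod-3 in the first comparison, of gpx-1, gpx-2 and sod-3 in the second and of gpx-3 in the third held under all 19. The number of genes called was 5 in the first comparison (4 to 6 over the alternatives, 5 to 6 with 1 array left out), 4 in the second (3 to 5 in both) and 1 throughout in the third. Values that turned with median centring were ctl-2 at -0.1483 and gpx-5 at -0.1369 in the first, gpx-5 at 0.1128 in the second, and sod-2 at -0.0011 and gpx-5 at -0.0241 in the third. With 1 array left out, ranges that crossed 0 were, in the first, sod-2 (-0.1658 to 0.0633) and ctl-2 (-0.0563 to 0.131). In the second they were sod-2 (-0.0089 to 0.2201), sod-5 (-0.8017 to 0.1223) and gpx-5 (-0.0833 to 0.0238), and in the third sod-2 (-0.0351 to 0.1398), sod-5 (-0.5973 to 0.3267), gpx-1 (-0.2121 to 0.0706) and gpx-5 (-0.0191 to 0.0879). The cause was not tested. Median centring moved the median change of all probe sets by -0.20, 0.15 and -0.06 in the 3 comparisons, and quantile normalization by -0.12, 0.06 and -0.04. Of all probe sets 4344 were called in the first comparison and 2861 without N2 replicate 1, 3558 in the second and 2218 without skn-1 RNAi replicate 1, and 1001 in the third and 523 to 600 without skn-1 RNAi replicate 3 or 2 or N2 replicate 1. Deviations of arrays with the same replicate number correlated at -0.16 to 0.18, over 0.1 in 3 of 9 pairs, against -0.17 to 0.17 and 2 of 24 for other pairs. Among mutant arrays, skn-1 RNAi replicates 1, 2 and 3 correlated highest with control replicates 1 (0.18), 4 (0.17) and 2 (0.17). These values do not settle whether arrays were paired, by number or otherwise, and the main fit held no pairing. A replicate block, which leaves mutant control replicate 4 without a partner and so without weight, kept 5, 4 and 1 calls among the 10 genes and turned sod-2 to 0.0633 in the first comparison and -0.0089 in the second. Averaging the probe sets of a gene was not run, since each has 1. For sod-5 no value was had with the lowest 50% left out. Its signal near the pseudocount limits what its changes can show.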

Other observations

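The spread between replicate arrays differed among the 10 genes. In the mutant on control RNAi the coefficient of variation was 3.17% for gpx-5 and 9.94% for gpx-1, and 35.3% for gpx-2. The arrays that were high were not the same from gene to gene. Replicates 1 and 3 were high in gpx-2 (944.9 and 922), and replicates 2 and 3 in sod-1 (8935 and 9091). Replicate 2 was the highest in sod-4 (580.6), and replicate 4 was the lowest in sod-2 (2523).

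In the skn-1 RNAi group, replicate 1 was the lowest of the 3 in all 4 glutathione peroxidase genes, gpx-1 (597.1), gpx-2 (224.9), gpx-3 (103) and gpx-5 (1639), and also in ctl-2 (1735) and sod-1 (5940). It was the highest in sod-2 (4130), sod-3 (276.3) and sod-5 (60.23). These are values of single arrays and were not tested.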
